A study of Mus musculus with 8 samples.

Results

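The aminoacyl-tRNA synthetases are the enzymes that load each tRNA with its amino acid. Their genes were selected by symbol in the deposited gene table, which gave 38 of its 22322 genes: 21 enzymes of the cytosol and 17 of the mitochondria. RNA of 8 samples labelled as primary mouse renal fibroblasts was sequenced. Of these, 4 had been given a GFP adenovirus (Ad-GFP, genotype WT) and 4 a Cre recombinase adenovirus (Ad-Cre, genotype suv39h1 knockdown). SUV39H1 is a histone methyltransferase that places the repressive H3K9 trimethyl mark. All 8 samples, the controls included, received TGF-β at 5 ng/ml for 48 h, so no sample shows the cells without it. The labels do not describe a floxed allele, a strain, an age or a sex, and the Cre protein itself was present in one group only, so an effect of Cre and an effect of lost Suv39h1 cannot be told apart.

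A synthetase first joins its amino acid to AMP and then passes it to the end of the matching tRNA. Most amino acids have a pair of nuclear genes, one for the cytosolic enzyme and one, usually written with a 2 at the end of the symbol, for the enzyme imported into mitochondria. Gars and Kars make both forms from a single gene and were counted as cytosolic, Eprs joins glutamyl and prolyl activities in one chain, and Farsa and Farsb encode the 2 chains of the cytosolic phenylalanyl enzyme. Part of the cytosolic set sits in the multisynthetase complex, a large particle held together by scaffold proteins. Many cytosolic synthetase genes are targets of ATF4, the transcription factor made when eIF2 kinases are active. Among these kinases GCN2 (Eif2ak4) is the one that senses uncharged tRNA. MYC is also known to drive several of the synthetase genes.

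The deposited counts summed to between 15879244 and 23940043 per library, and every Ad-Cre library (at least 18006938) was deeper than every Ad-GFP library (at most 17930632). Suv39h1 stood at 28.96, 27.82, 29.32 and 29.58 CPM (counts relative to the scaled library total) in the Ad-GFP libraries and at 25.29, 22.75, 21.63 and 22.56 CPM in the Ad-Cre libraries. Its mean in Ad-Cre was 79.6% of that in Ad-GFP (log2 fold change -0.33 ± 0.06, SE, n = 4 per group, adjusted p = 3.293e-05, from the quasi-likelihood test of edgeR with Benjamini-Hochberg adjustment over all genes). A gene is said to rise or fall only where that adjusted p was under 0.05. Of the 13337 genes tested, 40.3% were called, 20.5% lower and 19.8% higher in Ad-Cre, and in 35.4% the CPM values of the groups did not overlap. The median log2 fold change of all tested genes was 0.00. The markers went against a pure fibroblast label. In Ad-GFP the epithelial genes Krt8, Krt18, Cldn4 and Cdh1 had mean levels of 774, 679, 632 and 160 FPKM. Epcam, Krt19 and Cldn7, also epithelial, stood at 160, 128 and 97.4 FPKM. The fibroblast markers stood at 36.7 FPKM for Col1a2, 35.1 for Col1a1, 13.3 for Postn, 5.21 for Pdgfrb, 4.2 for Thy1, 2.4 for Dcn and 0.97 for Pdgfra. Myofibroblast markers were high too, with Acta2 at 435 FPKM, Tagln at 248, Myl9 at 83.9 and Cnn1 at 48.6. Marker genes also differed between the groups: all 9 tested endothelial markers and all 4 myofibroblast markers fell, 4 of 7 fibroblast and 8 of 10 leukocyte markers fell, and 4 of 5 proximal tubule markers rose. Of the 7 epithelial markers 4 fell and 1, Epcam, rose, and of 6 mural cell markers 4 fell. Summed CPM was 469.2 to 513.3 in Ad-GFP and 304.3 to 352.2 in Ad-Cre for the fibroblast markers, 132.9 to 138.0 and 62.67 to 72.95 for the endothelial ones, 265.7 to 306.2 and 234.1 to 244.5 for the leukocyte ones, 4809 to 5028 and 4321 to 4370 for 7 epithelial markers, and 113.7 to 128.8 and 161.5 to 185.6 for the proximal tubule ones. No listed marker was at 0 in every library, but Lum (fibroblast), Slc34a1 (proximal tubule) and Cldn5 (endothelial) did not pass the count filter. In bulk RNA fewer cells of a type and less RNA per cell cannot be told apart, and the part of these marker differences in the values below was not tested. Nothing in the labels says that the replicates of a group were cultured or isolated separately, and p-values here therefore reflect the sample-to-sample spread alone, possibly a technical one.

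Nearly all of the falls were in cytosolic enzymes, with Wars, Gars, Rars and Cars at their head. All 38 genes passed the filter on low counts. In Ad-Cre 10 of them fell, 1 rose and 27 were not called, which is 28.9% called against 40.3% of all tested genes, and the groups did not overlap for 12 genes (31.6%, against 35.4% of all tested genes). The set as a whole was therefore not called more often than genes at large, and the calls were unevenly placed: 9 of 21 cytosolic genes fell (42.9%, against 20.5% of all genes), while 1 of 17 mitochondrial genes fell (5.88%). By edgeR 0 cytosolic genes rose, against 19.8% of all genes, and 0 rose at an unadjusted p under 0.05 by edgeR, DESeq2 or limma-voom. With every library thinned to the smallest total, 10 cytosolic genes fell. With Gars and Kars left out, because they also serve mitochondria, 8 of 19 cytosolic genes fell. The log2 fold change was below 0 for 18 of 21 cytosolic genes (median -0.06, range -0.49 to 0.09) and for 6 of 17 mitochondrial genes (median 0.08, range -0.25 to 0.28). The difference between the cytosolic and the mitochondrial set was not tested.

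Summed over the 21 cytosolic genes, expression was 4139, 4162, 4156 and 4118 CPM in the Ad-GFP libraries and 3855, 3881, 3915 and 3733 CPM in the Ad-Cre libraries. The Ad-Cre mean was 92.8% of the Ad-GFP mean, and no Ad-Cre library reached the lowest Ad-GFP library. The 17 mitochondrial genes together gave 396.9, 392.9, 388.6 and 402.5 CPM across Ad-GFP and 409.5, 401.0, 415.8 and 408.1 CPM in Ad-Cre, 103% of the Ad-GFP mean. Here the groups overlapped, since Ad-Cre replicate 2 lay under Ad-GFP replicate 4.

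**Figure D1:**
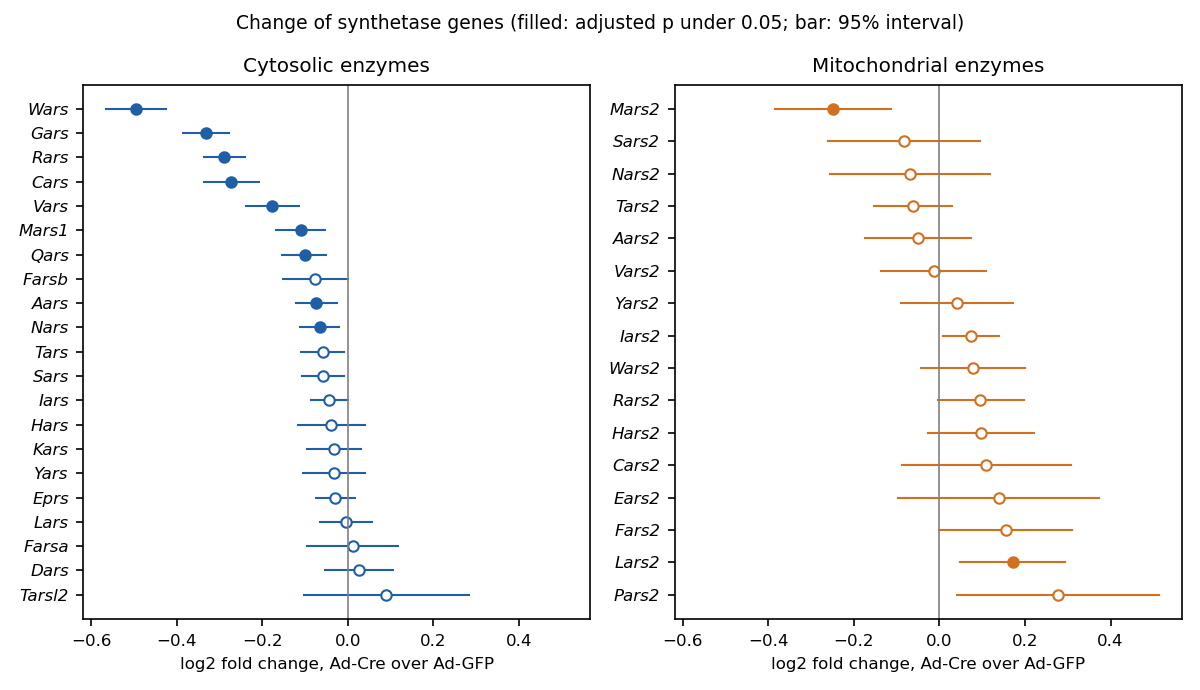
Log2 fold change of 37 of the 38 synthetase genes, Ad-Cre over Ad-GFP (x axis), with cytosolic enzymes on the left and mitochondrial ones on the right; bars are 95% intervals of the fit and filled points passed an adjusted p of 0.05. The cytosolic points run from -0.49 (Wars) to 0.09 (Tarsl2), with 18 of 21 below 0, while 10 of the 16 mitochondrial points drawn lie above 0.

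Sequence upstream of the start was examined because ATF4 binds, with a C/EBP partner, to a composite element usually written TGATGNAA. Windows of 250 bases before to 50 bases after the annotated start (RefSeq, GRCm38.p6) were found for 28 of the 38 genes, 14 cytosolic and 14 mitochondrial. The 10 genes whose windows were not used here include Cars, Hars, Hars2, Lars, Nars, Pars2, Rars, Vars and Wars. TGATGNAA, read on both strands (TTNCATCA on the other), stood in the windows of 5 of 14 cytosolic genes (35.7%) and 0 of 14 mitochondrial genes, against 3.97% of all windows and 2.76% of tested genes with a window. A stretch of each of these 5 windows is shown with that element in capitals, read 5′ to 3′ along its gene. They are the windows that set the cytosolic share apart from the mitochondrial one. Aars holds a second match (TGATGAAA on the other strand), beginning 9 bases past the start, which is not shown. Upstream and start refer to the RefSeq start. On GENCODE M21 the genes Aars (chr8:111033144), Yars (chr4:129189760) and Iars (chr13:49682100) begin earlier, so their stretches lie inside those gene bounds. CACGTG, the E-box bound by MYC among other factors, is also in capitals in Aars and does not overlap the ATF4-type element there.
Gars (chr6:55037941-55038000, plus strand, just upstream of the start): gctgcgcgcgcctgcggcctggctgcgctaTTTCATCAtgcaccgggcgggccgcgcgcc
Tars (chr15:11399659-11399718, minus strand, just upstream of the start): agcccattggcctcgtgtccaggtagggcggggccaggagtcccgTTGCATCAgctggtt
Aars (chr8:111033682-111033741, plus strand, upstream): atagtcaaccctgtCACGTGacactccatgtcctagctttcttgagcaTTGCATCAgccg
Yars (chr4:129189898-129189921, plus strand, across the start): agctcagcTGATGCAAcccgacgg
Iars (chr13:49682129-49682152, plus strand, across the start): tgtcagtaTTGCATCAcctccaga

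Genes with and without the element were found among those that fell: of the 5 cytosolic genes with it, Gars and Aars fell and Tars, Yars and Iars were not called, and of the 9 cytosolic genes with a window but no match, Mars1 and Qars fell. No test was run on these counts. CACGTG stood in 4 of 14 cytosolic windows (28.6%) and 1 of 14 mitochondrial windows (7.14%), against 11.5% of tested genes with a window. GGGCGG, the GC box of housekeeping promoters, stood in 9 of 14 cytosolic (64.3%) and 11 of 14 mitochondrial windows (78.6%), close to the 68.5% of tested genes with a window. A match is a stretch of letters and was not shown to be bound in these cells.

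The largest fall was that of Wars (ENSMUSG00000021266, chr12:108860030-108894174 on GRCm38), the cytosolic tryptophanyl enzyme, which is also known as an interferon-inducible gene. It gave 129.0, 132.4, 137.5 and 125.7 CPM across Ad-GFP and 88.58, 98.15, 94.40 and 90.76 CPM in Ad-Cre. Every Ad-Cre library lay under every Ad-GFP library, and the Ad-Cre mean was 71.0% of the Ad-GFP mean (log2 fold change -0.49 ± 0.03, SE, adjusted p = 8.585e-12 by edgeR). Of 12 listed interferon-response genes, 5 fell (41.7%, against 20.5% of all genes) and 0 rose by edgeR (0 also at an unadjusted p under 0.05, and 0 by DESeq2 and limma-voom). The list's median was -0.23 (log2). Among them were Nlrc5, a driver of MHC class I genes, at 68.9% of Ad-GFP, Psmb8, an immunoproteasome subunit, at 76.4%, and Tap1, a peptide transporter, at 81.1%. The part of the interferon genes in the Wars value was not tested.

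Gars, Rars and Cars formed a second tier, each at about 80% of its control level. Gars (ENSMUSG00000029777, chr6:55038007-55079500), the glycyl enzyme of both compartments and a gene of inherited peripheral neuropathy, gave 328.7, 339.5, 338.8 and 322.0 CPM across Ad-GFP and 266.0, 270.0, 270.5 and 250.0 CPM in Ad-Cre. That is 79.5% of the Ad-GFP mean (log2 fold change -0.33 ± 0.03, SE, adjusted p = 1.475e-10 by edgeR), with no overlap. Rars (ENSMUSG00000018848, chr11:35808381-35834506), the arginyl enzyme of the multisynthetase complex, gave 238.6, 237.8, 234.1 and 237.8 CPM across Ad-GFP and 194.1, 196.2, 194.6 and 191.3 CPM in Ad-Cre. Its libraries were tightly grouped on both sides, at 81.9% (log2 fold change -0.29 ± 0.02, SE, adjusted p = 1.646e-10 by edgeR). Cars (ENSMUSG00000010755, chr7:143557230-143600090), the cysteinyl enzyme, gave 129.1, 127.0, 128.4 and 130.2 CPM across Ad-GFP and 107.2, 106.1, 112.8 and 100.5 CPM in Ad-Cre. Its Ad-Cre libraries were more spread than its Ad-GFP libraries, but all lay lower, at 82.8% (log2 fold change -0.27 ± 0.03, SE, adjusted p = 1.229e-07 by edgeR). A pseudogene, Gm15580, overlaps 211 of the 6583 exon bases of Cars on the opposite strand, and whether the counting used strand is not stated.

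Smaller falls were seen for Vars, Qars and Mars1. Vars (ENSMUSG00000007029, chr17:35000987-35016322), the valyl enzyme, which binds the elongation factor that carries charged tRNA to the ribosome, gave 140.3, 138.9, 139.0 and 140.2 CPM across Ad-GFP and 131.2, 122.9, 123.3 and 117.2 CPM in Ad-Cre, 88.5% of the Ad-GFP mean (adjusted p = 3.921e-05 by edgeR). The Ad-GFP libraries were almost level and the Ad-Cre libraries spread below them. Qars (ENSMUSG00000032604, chr9:108507706-108515941), the glutaminyl enzyme, which has no mitochondrial partner gene, gave 165.6, 161.2, 165.3 and 165.5 CPM across Ad-GFP and 152.3, 154.8, 154.3 and 151.4 CPM in Ad-Cre, 93.2% (adjusted p = 0.002045 by edgeR). Mars1 (ENSMUSG00000040354, chr10:127296221-127311786), the methionyl enzyme that also serves initiator tRNA, gave 139.9, 138.3, 144.1 and 138.2 CPM across Ad-GFP and 132.4, 130.2, 131.2 and 125.6 CPM in Ad-Cre, 92.6% (adjusted p = 0.002193 by edgeR). For both genes all Ad-Cre libraries lay under all Ad-GFP libraries. Mars1 shares 68 of its 3423 exon bases with Ddit3 on the opposite strand. The fall of Qars was not called on the deposited FPKM values (limma on log2(FPKM + 1), log2 difference -0.12, adjusted p = 0.1426), where its Ad-GFP libraries were spread more widely (83.9 ± 7.49 FPKM, SD, n = 4).

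Aars and Nars, among the synthetase genes of highest CPM (a measure not corrected for length), fell by little. Aars (ENSMUSG00000031960, chr8:111033144-111057664), the alanyl enzyme, gave 431.2, 421.2, 425.7 and 425.6 CPM across Ad-GFP and 407.4, 412.8, 414.5 and 384.1 CPM in Ad-Cre, 95.02% of the Ad-GFP mean (adjusted p = 0.0147 by edgeR). Nars (ENSMUSG00000024587), the asparaginyl enzyme, gave 418.2, 419.2, 415.3 and 417.7 CPM across Ad-GFP and 396.4, 403.5, 410.8 and 385.0 CPM in Ad-Cre, 95.5% (adjusted p = 0.01978 by edgeR). The groups did not overlap for either gene, but Ad-Cre replicate 4 was the lowest library of both. Without it neither was called by edgeR (adjusted p = 0.08394 for Aars and 0.09007 for Nars), and 7 cytosolic genes fell in place of 9. Aars also shares 1326 of its 9282 exon bases with Exosc6 on the same strand, so reads from that stretch could belong to either gene.

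**Figure D2:**
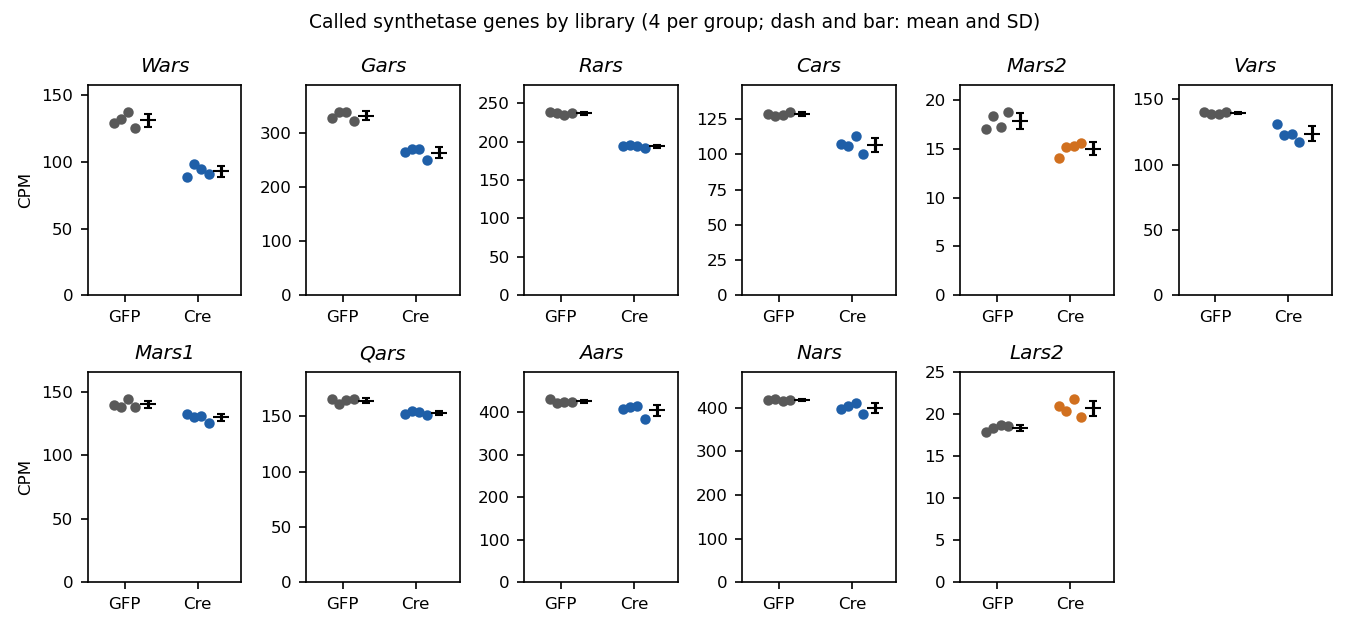
CPM in each library (y axis, starting at 0, 1 panel per gene) for the 11 synthetase genes called between Ad-GFP (grey) and Ad-Cre (blue, cytosolic; orange, mitochondrial); the dash and bar beside the points are the mean and SD over 4 libraries. In every panel the groups do not overlap, from Wars at 71.0% of the Ad-GFP mean to Lars2 at 113%.

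The other 12 cytosolic genes were not called, with log2 fold changes between -0.08 and 0.09. Sars, the seryl enzyme, and Tars, the threonyl enzyme, lay just past the threshold. Sars gave 342.9, 334.3, 337.4 and 321.5 CPM across Ad-GFP and 318.7, 328.2, 321.7 and 314.7 CPM in Ad-Cre (adjusted p = 0.05227 by edgeR), with overlapping groups. Tars gave 198.2, 198.1, 202.0 and 196.9 CPM across Ad-GFP and 194.6, 189.7, 193.4 and 185.6 CPM in Ad-Cre (adjusted p = 0.05634 by edgeR), with no overlap. Each was called under 7 of 18 alternative settings, Sars among them without Ad-GFP replicate 4 (adjusted p = 0.0155) or without Ad-Cre replicate 2 (0.02481), and Tars without Ad-Cre replicate 1 (0.03736). On the deposited FPKM values Sars turned direction, with a log2 difference of 0.01 (limma on log2(FPKM + 1), adjusted p = 0.8259). Lars, the leucyl enzyme that also acts as a leucine sensor for mTORC1, stood at 99.7% of its Ad-GFP mean (log2 fold change -0.01, 95% interval -0.07 to 0.06). Eprs, the fused glutamyl and prolyl enzyme, stood at 98.0% (interval -0.08 to 0.02), Iars, the isoleucyl enzyme, at 97.0% (-0.09 to 0.00), and Kars, the lysyl enzyme, at 97.8% (-0.10 to 0.03). The remaining genes were Farsb (94.9%), Hars (97.3%), Yars (97.8%), Farsa (100.7%), Dars (101.8%) and Tarsl2, a threonyl-like enzyme (106.4%). For 17 of the 21 cytosolic genes the 95% interval lay wholly above the change of Cars, -0.27, so a fall of that size lay outside their intervals.

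Among the mitochondrial enzymes 1 gene fell and 1 rose. Mars2 (ENSMUSG00000046994, chr1:55237177-55248470), the methionyl enzyme, gave 17.03, 18.42, 17.32 and 18.82 CPM across Ad-GFP and 14.05, 15.18, 15.28 and 15.63 CPM in Ad-Cre. All Ad-Cre libraries lay lower, at 84.2% of the Ad-GFP mean (log2 fold change -0.25 ± 0.07, SE, adjusted p = 0.0038 by edgeR). On the FPKM values, where Mars2 was the lowest of all 38 genes at 1.6 ± 0.08 (SD, n = 4) in Ad-GFP, the fall was not called (limma on log2(FPKM + 1), adjusted p = 0.07392). Lars2 (ENSMUSG00000035202, chr9:123366927-123462666), the leucyl enzyme and a gene of inherited hearing loss with ovarian failure, gave 17.83, 18.31, 18.68 and 18.63 CPM across Ad-GFP and 20.98, 20.40, 21.77 and 19.62 CPM in Ad-Cre. All Ad-Cre libraries lay higher, at 113% (log2 fold change 0.17 ± 0.06, SE, adjusted p = 0.02338 by edgeR). This rise was the least firm of the 11 calls: it was lost by DESeq2 (adjusted p = 0.0679), with all libraries thinned to the smallest one (0.06733), on both FPKM scales (0.1047 and 0.1053), without Ad-GFP replicate 1 (0.06327) and without Ad-Cre replicate 3 (0.07514).

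The other 15 mitochondrial genes were not called. Pars2, the prolyl enzyme, had the highest fold change at 121.1% of Ad-GFP, with 5.963, 5.586, 4.551 and 5.753 CPM across Ad-GFP and 7.331, 6.897, 5.912 and 6.389 CPM in Ad-Cre (adjusted p = 0.0577 by edgeR). Its groups overlapped at Ad-GFP replicate 1, and it was called under 3 of 18 alternatives: with the replicate block (adjusted p = 0.04728), with thinned libraries (0.04701) and without Ad-Cre replicate 3 (0.03808). Iars2, the isoleucyl enzyme and the most abundant of the mitochondrial set, gave 100.5, 104.6, 104.9 and 108.5 CPM across Ad-GFP and 109.3, 105.3, 114.5 and 111.4 CPM in Ad-Cre, 105.2% (adjusted p = 0.06841 by edgeR). It was called without Ad-GFP replicate 4 (0.03801) or without Ad-Cre replicate 2 (0.02506), but 2034 of its 8885 exon bases overlap Rab3gap2 on the opposite strand. Rars2, the arginyl enzyme, stood at 106.9% and was called only without Ad-GFP replicate 1 (0.038). Others above their control mean were Fars2 (111.3%), Ears2 (110.1%), Cars2 (107.9%), Hars2 (107.0%), Wars2 (105.6%) and Yars2 (102.8%). Below it stood Vars2 (99.1%), Aars2 (96.6%), Tars2 (95.9%), Nars2 (95.4%) and Sars2 (94.4%).

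The mitochondrial values were less precise. Their SEs ran from 0.03 to 0.12 (median 0.06) against 0.02 to 0.09 (median 0.03) for the cytosolic genes, at a median Ad-GFP level of 18.4 CPM against 140.1 CPM. Even so, the 95% interval lay wholly above the change of Cars for 16 of 17 mitochondrial genes and above that of Vars, -0.18, for 14 of 17. A change of the size of Aars or Nars was within the error of most of them.

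Per length, the cytosolic enzymes were the more abundant. In Ad-GFP the cytosolic genes had a median of 52.1 FPKM and ran from Tarsl2 at 2.69 ± 0.30 to Sars at 216 ± 5.76 (SD, n = 4). Sars was followed by Nars (174 ± 3.05), Gars (141 ± 3.63), Rars (113 ± 0.99) and Iars (108 ± 2.08), then by Qars (83.9 ± 7.49) and Eprs (82.5 ± 1.90), which did not differ beyond their spread, and Aars (75.3 ± 0.98). The mitochondrial genes had a median of 5.44 FPKM, from Mars2 at 1.595 to Iars2 at 23.9 ± 0.81, with Rars2 (20.3 ± 1.84) and Tars2 (18.5 ± 0.98) next and within each other's spread. In Ad-Cre the order at the top was Sars (217 ± 4.6), Nars (160 ± 4.54), Gars (110 ± 4.03), Iars (107 ± 2.0) and Rars (91.3 ± 1.01). Rars thus lay above Iars in Ad-GFP and below it in Ad-Cre, while Gars and Iars came within their spread of each other. The falls were not in order of level. Mars2, the lowest of the 38 genes, fell, and among the cytosolic genes Wars and Cars, at 51.0 and 52.1 FPKM, lay beside Tars at 49.96 FPKM, which was not called.

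**Figure D3:**
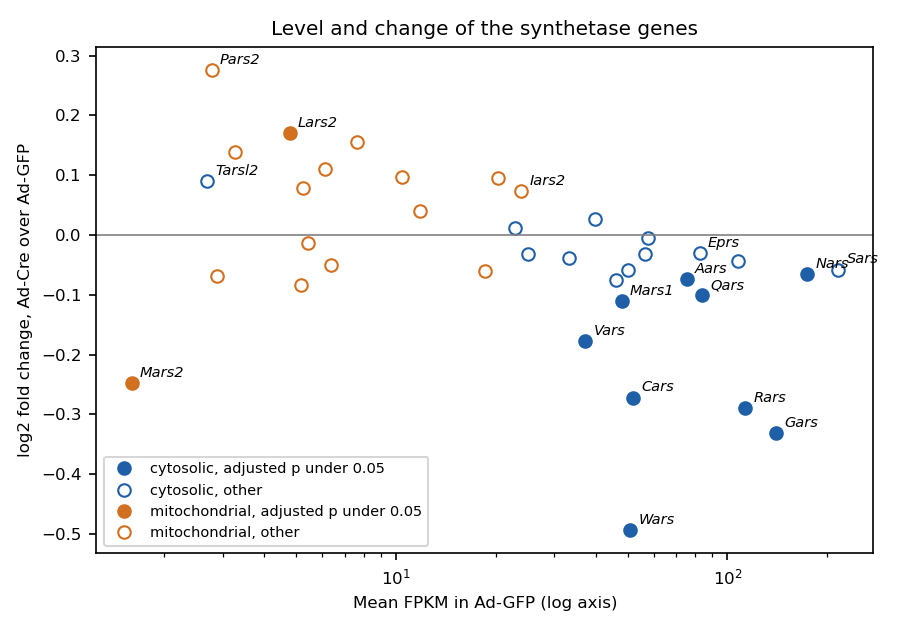
Mean FPKM in Ad-GFP (x axis, log scale) against log2 fold change, Ad-Cre over Ad-GFP (y axis), for 37 of the 38 synthetase genes, 1 point per gene; filled points passed an adjusted p of 0.05. The called cytosolic genes lie between 37.3 FPKM (Vars) and 174 FPKM (Nars), and Sars, the highest at 216 FPKM, was not called.

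Pairs of enzymes for the same amino acid were compared by the log2 ratio of their CPM within each library, as a description with no test. The ratio of cytosolic to mitochondrial enzyme was lower in Ad-Cre for 14 of 18 pairs and higher for 2. The groups did not overlap for 6 pairs, all lower in Ad-Cre: Wars to Wars2 (difference -0.57), Rars to Rars2 (-0.39), Cars to Cars2 (-0.38), Lars to Lars2 (-0.18), Vars to Vars2 (-0.16, its highest Ad-Cre and lowest Ad-GFP libraries both at 2.57) and Iars to Iars2 (-0.12). Among single genes the groups did not overlap for 35.4% of all tested, and no such share was taken over ratios of other genes. The count of 6 pairs is therefore not read as a trait of the pairs. For tryptophan the ratio was 2.58, 2.69, 2.80 and 2.56 in Ad-GFP and 2.13, 2.11, 2.11 and 2.01 in Ad-Cre. For arginine it was 2.57, 2.69, 2.78 and 2.65 in Ad-GFP and 2.31, 2.26, 2.32 and 2.27 in Ad-Cre. In both pairs the cytosolic gene fell and the mitochondrial gene was not called. Methionine ran the other way, with a difference of 0.14 and overlapping groups, with Mars2 at 84.2% and Mars1 at 92.6% of their Ad-GFP means. The Eprs pairs share one cytosolic gene and the Farsa and Farsb pairs share Fars2, so the 18 pairs are not independent.

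**Figure D4:**
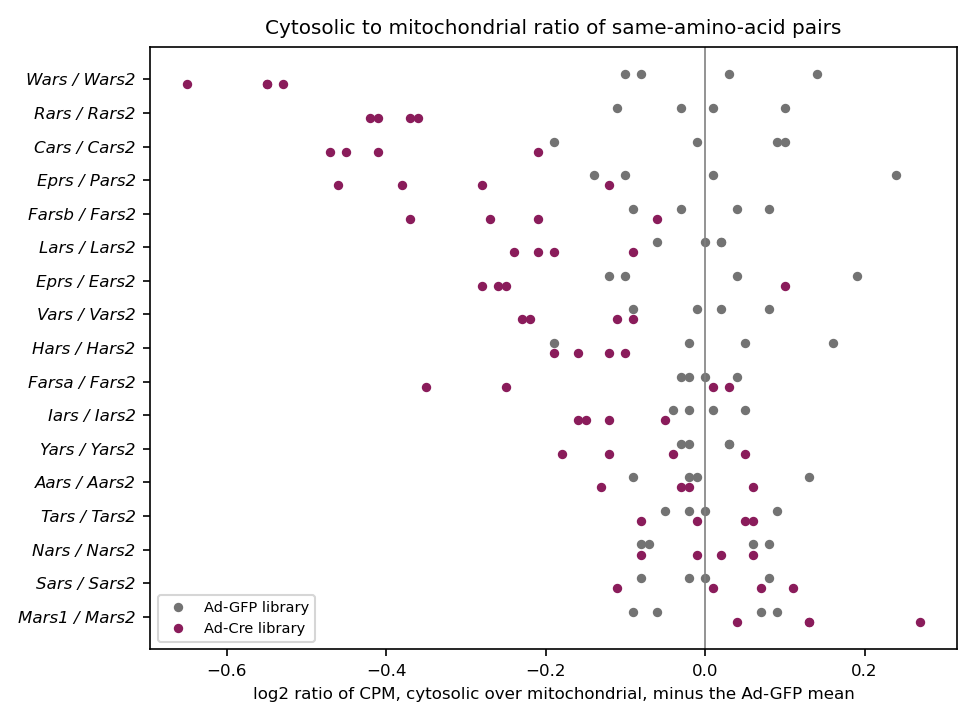
Log2 ratio of cytosolic over mitochondrial CPM for 17 of the 18 same-amino-acid pairs, minus the mean of the Ad-GFP libraries (x axis); each point is 1 library, grey for Ad-GFP and purple for Ad-Cre. The Ad-Cre points lie left of the Ad-GFP points for tryptophan (mean difference -0.57), arginine (-0.39) and cysteine (-0.38), and right of 0 for methionine (0.14).

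The cytosolic falls were spread over the known subdivisions of the family. In the multisynthetase complex 3 of 8 enzymes fell (37.5%, against 20.5% of all genes): Rars, Qars and Mars1. The median log2 fold change of the 8 was -0.04. Outside the complex 6 of 13 fell (46.2%, median -0.07). The complex's other enzymes, Eprs, Iars, Lars, Kars and Dars, were not called. Its scaffold genes Aimp1, Aimp2 and Eef1e1 gave 0 calls by edgeR, with 0 at an unadjusted p under 0.05 and 0 by DESeq2 and limma-voom. By catalytic class, 6 of 9 cytosolic class I enzymes fell (66.7%, median -0.11) against 3 of 11 of class II (27.3%, median -0.06). The class II share was close to the 20.5% of all genes. The mitochondrial class I enzymes held both mitochondrial calls, and the 8 class II enzymes gave 0 calls by edgeR, with 2 higher at an unadjusted p under 0.05 (1 by DESeq2 and by limma-voom). Of the 13 cytosolic enzymes commonly named as ATF4 targets 7 fell (53.8%) and all 13 had log2 fold changes below 0 (median -0.07). Of the other 8, Rars and Qars fell (25.0%, also close to the share of all genes) and 5 were below 0 (median -0.04). Differences between these subdivisions were not tested.

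Other genes of the amino acid response fell as well. Of 27 listed ATF4-response genes 17 fell (63.0%, against 20.5% of all genes) and 1 rose (3.7%, against 19.8%). Their median was -0.14 (log2). Shmt2, the mitochondrial serine hydroxymethyltransferase, stood at 76.8% of Ad-GFP (adjusted p = 5.557e-10 by edgeR), Psat1, of serine synthesis, at 79.2% (6.47e-08) and Sesn2, a leucine-binding inhibitor of mTORC1, at 85.0% (1.242e-07). Asns, asparagine synthetase, gave 183.5, 189.2, 191.3 and 184.8 CPM across Ad-GFP and 171.2, 182.7, 170.5 and 163.2 CPM in Ad-Cre, 91.9% (adjusted p = 0.001791 by edgeR). Trib3, a pseudokinase that restrains ATF4, stood at 83.9% (adjusted p = 0.0004281 by edgeR), with no overlap between groups. Atf4 itself gave 335.6, 330.7, 323.4 and 317.9 CPM across Ad-GFP and 302.1, 333.9, 310.4 and 295.6 CPM in Ad-Cre, with overlapping groups and a mean of 95.02% (adjusted p = 0.04792 by edgeR). Atf4 lost its call under 9 of 18 alternatives, 6 of them the loss of a single library (Ad-GFP replicate 1, 2 or 3, or Ad-Cre replicate 1, 3 or 4), with adjusted p up to 0.196. ATF4 is controlled mainly at translation, which these data do not measure.

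Chac1, which degrades glutathione, stood at 90.9% (adjusted p = 0.04467 by edgeR) and likewise lost its call under 9 of 18 alternatives, with Ad-GFP replicate 2, 3 or 4 or Ad-Cre replicate 1 or 4 left out among them (adjusted p up to 0.1583). Ddit3, the stress factor CHOP, went the other way at 112.2% (adjusted p = 0.0481 by edgeR), with overlapping groups, and lost its call under 13 of 18, with Ad-GFP replicate 1, 3 or 4 or Ad-Cre replicate 1, 2 or 3 left out among them (adjusted p up to 0.2023). Of 8 genes of the eIF2 kinases and their counterparts 1 rose and 1 fell (25.0% called, against 40.3% of all genes). Eif2ak1, the heme-regulated kinase, stood at 113.4% (adjusted p = 0.0002835 by edgeR) and Eif2ak3, the kinase PERK, at 93.9% (0.007507). Eif2ak4, which senses uncharged tRNA, gave 41.97 to 47.11 CPM across Ad-GFP and 41.00 to 45.45 CPM in Ad-Cre and was not called (97.5%, 95% interval of the log2 fold change -0.13 to 0.06).

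Myc, whose product drives growth genes, rose. It gave 84.69, 84.68, 86.88 and 89.35 CPM across Ad-GFP and 100.8, 100.7, 96.17 and 99.05 CPM in Ad-Cre, 114.8% with no overlap (adjusted p = 1.113e-05 by edgeR). Of 7 genes of MYC and its partners 3 rose (42.9%, against 19.8% of all genes) and 1 fell (14.3%, against 20.5%). Mnt, a repressor that pairs with MAX, stood at 111.1%, and Mycl, a MYC relative, at 65.5%. The call of Mnt was lost on both FPKM scales (adjusted p up to 0.06391 by limma). Of 12 proliferation genes 11 fell (91.7%, against 20.5% of all genes, median -0.77, log2), among them Mki67 at 54.3%, Top2a at 54.4% and Mcm6 at 61.8%. The part of the proliferation genes in the synthetase values was not tested.

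**Figure D5:**
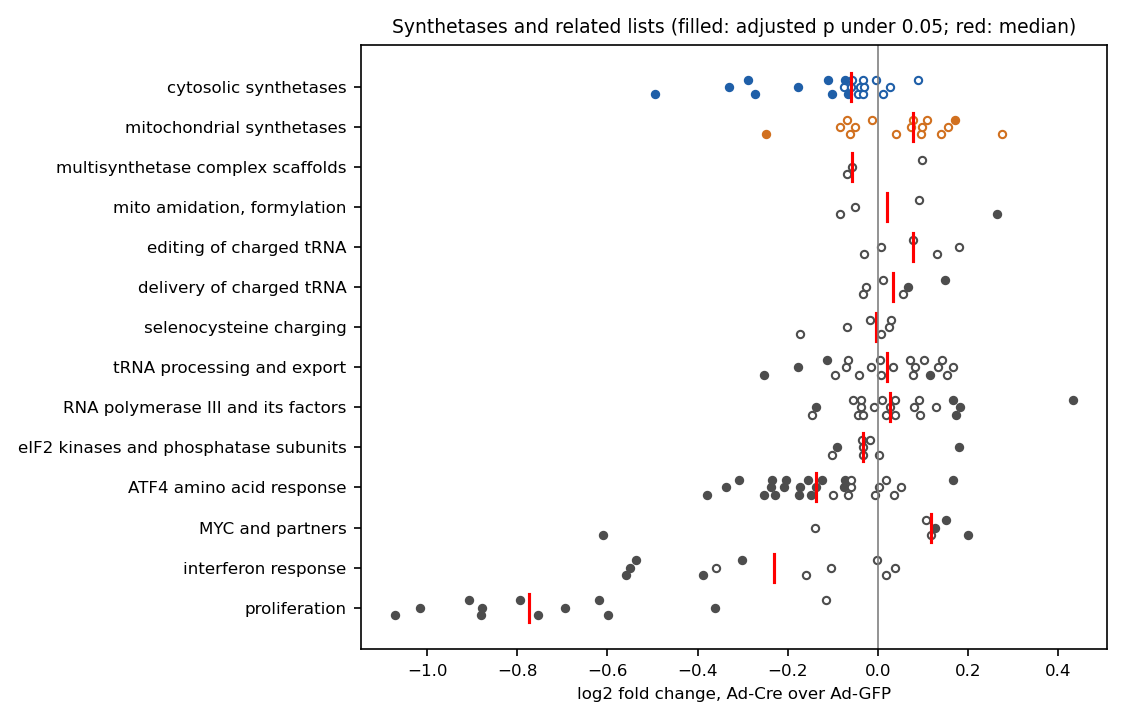
Log2 fold change, Ad-Cre over Ad-GFP (x axis), of the tested genes in the synthetase sets and in lists of related genes (rows), 1 point per gene, with 2 genes not drawn; filled points passed an adjusted p of 0.05 and red ticks are the medians of the full lists. The cytosolic median is -0.06 and the mitochondrial 0.08, beside -0.14 for the ATF4 amino acid response and -0.77 for proliferation.

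Genes of the steps before and after charging were called in small numbers. Among 6 genes that deliver charged tRNA to the ribosome 2 rose (33.3%, against 19.8% of all genes): Eef1a1, the elongation factor itself, from 7314 ± 61.5 to 8109 ± 64.0 CPM (SD, n = 4 per group, adjusted p = 2.379e-09 by edgeR), and Eef1g, a subunit of its exchange factor, at 104.7% (0.01234). The rise of Eef1g was lost without Ad-GFP replicate 4, among 5 of 18 alternatives (adjusted p up to 0.1235). Of 4 genes that amidate or formylate charged tRNA in mitochondria 1 rose (25.0%, close to the 19.8% of all genes). It was Gatc, a subunit of the enzyme that makes mitochondrial glutaminyl-tRNA, at 120.1% (adjusted p = 0.00106 by edgeR). The 5 editing genes and the 6 selenocysteine genes gave 0 calls by edgeR, with 1 editing gene higher at an unadjusted p under 0.05 and 0 calls by DESeq2 and limma-voom. Of 20 genes of tRNA processing and export 3 fell (15%, against 20.5% of all genes) and 1 rose (5%, against 19.8%): Tsen34, a subunit of the tRNA splicing endonuclease, stood at 83.9%, Nsun2, a tRNA methyltransferase, at 92.5% and Ssb, the La protein that binds new RNA polymerase III transcripts, at 108.3%. The call of Ssb was lost on both FPKM scales (adjusted p up to 0.05558 by limma). Of 21 genes of RNA polymerase III and its factors 4 rose (19.0%, against 19.8% of all genes) and 1 fell (4.76%, against 20.5%), among them Polr3g at 135.0% and Polr3e at 112.2%, and Gtf3c1, the largest subunit of TFIIIC, at 90.9%.

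Several synthetase genes share a locus with another gene. On GENCODE M21 (GRCm38), 10 of the 38 have a protein-coding neighbour that starts within 1000 bases on the other strand and is read away from them (26.3%, against 15.5% of tested protein-coding genes): 4 cytosolic and 6 mitochondrial. Wars is the one of these that was called. Its neighbour Wdr25 starts 543 bases away and stood at 4.47 CPM across Ad-GFP and 4.74 CPM in Ad-Cre, not called (log2 fold change 0.08 ± 0.13, SE, adjusted p = 0.6651 by edgeR). Next to Yars, S100pbp rose (log2 fold change 0.16, adjusted p = 0.008602 by edgeR), and next to Ears2, Ubfd1 rose (0.26, 2.005e-05), while neither synthetase was called. Hars and Hars2 are each other's neighbour and stood at 97.3% and 107.0%. Their starts lie 197 bases apart, each inside the other gene. The genes share 195 exon bases on opposite strands, so reads from that stretch could belong to either if counting ignored strand. Exons of 15 of the 38 genes overlap another annotated gene, for 14 of them on the opposite strand. Transcripts of 11 of the 38 matched those of another gene at 95% identity or more over at least 100 bases, each time a gene whose exons overlap theirs, so no synthetase shared such a stretch with a gene elsewhere.

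The authors' deposited table of their own comparison listed 10 of the 38 genes at a false discovery rate under 0.05, and all 10 were among the 11 called here. Lars2 was the gene called here alone.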

How the data were processed

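RNA from 8 samples was sequenced, 4 per group. The authors deposited whole-number read counts per gene and FPKM values of the same libraries, per the file headers, with log2 fold changes, p-values and FDR values of their own comparison. The submitters' processing notes name GRCm38 and mm10. The aligner, counting tool and strand setting: not given in the sources used here.

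Counts were fitted with edgeR 4.0.16 (R 4.3.3): filterByExpr kept 13337 genes, TMM factors were 0.992 to 1.01, and a two-sided quasi-likelihood F-test with Benjamini-Hochberg adjustment over all genes used a threshold of 0.05. The fit was also run on simulated data, with the same added spread for every gene and a far smaller share of changed genes. That run cannot show how often calls are wrong in these data. CPM uses TMM-scaled totals. SE is the absolute log2 fold change over the square root of F. No 2 libraries agreed within sampling noise (chi-square per degree of freedom 1.83 to 3.35). Alternatives used RLE or upper-quartile scaling, no filter, a minimum of 5 CPM, DESeq2 1.42.0, limma 3.58.1 (voom, and log2(FPKM + 1) or log2(FPKM + 0.1) for genes of mean FPKM of at least 1), a replicate block, thinned libraries and each library left out. The added 1 or 0.1 draws the log2 FPKM difference of a low gene towards 0, the 1 more than the 0.1. Transcripts were compared with BLAST 2.17.0.

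Members are named, called ones with every library's value. Of the genes this naming takes, 2 are not reported here; counts and sums include them. Of each related list up to 3 called genes of smallest p may be named, and Atf4, Asns, Ddit3, Trib3, Chac1, Eif2ak4, Myc and Suv39h1 always. Wdr25, S100pbp and Ubfd1 were named for their position. Members and lists were chosen with earlier results of these data known.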

Additional observations from a re-analysis of the deposited data

Results flagged for a closer look

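In 3 of 76 groups of 4 libraries tested over the synthetase genes, 1 library stood apart from the other 3 (its gap to the nearest of them, over the group's range, passed Dixon's 95% critical value), and chance alone flags about 1 in 20 such groups. Qars was at 161.2 CPM in Ad-GFP replicate 2 and at 165.3 to 165.6 CPM in the other Ad-GFP libraries. Tarsl2 was at 7.11 CPM in Ad-GFP replicate 1, against 8.88 to 9.04 CPM in the others. Cars2 was at 8.65 CPM in Ad-Cre replicate 4, against 10.89 to 11.15 CPM in the others. Among 62 groups of the other named genes 3 were flagged: Ddit3 at 21.95 CPM in Ad-GFP replicate 4 (others 25.83 to 26.33), Eef1g at 544.0 CPM in Ad-Cre replicate 4 (others 555.8 to 557.8) and Polr3g at 9.46 CPM in Ad-GFP replicate 2 (others 7.15 to 7.34).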

How the results depend on the processing

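Of the 11 called synthetase genes 6 (Wars, Gars, Rars, Cars, Vars and Mars1) were called under all 18 alternatives, and no called value changed sign. Over the 38 genes and 18 alternatives, 630 of 684 values kept their call and direction, 12 lost the call (5 genes), 25 gained one (7 genes) and 17 changed sign with no call on either side (6 genes). The count of genes that rose, 1 in all and 1 among the mitochondrial genes, became 2 with no filter and 2 with the replicate block, and 0 by DESeq2 and 0 by limma on log2(FPKM + 1) or log2(FPKM + 0.1). At an unadjusted p under 0.05 those last 3 gave 2, 3 and 2 mitochondrial genes. With 1 library left out the count ran from 1 to 2. Mitochondrial genes that fell numbered 0 on both FPKM scales (2 at an unadjusted p under 0.05). Over all genes 1400 and 1393 rose on the FPKM scales, against 2641. The causes were not tested. Falls among the 21 cytosolic genes ranged from 7 (without Ad-Cre replicate 4) to 13 (upper-quartile scaling, or at least 5 CPM), where Sars, Tars, Iars and Farsb were added. Same-numbered libraries correlated at -0.012 to 0.104, which cannot show whether the replicates were paired, and the labels do not say. The replicate block gave 10 cytosolic falls. The SE of a mitochondrial log2 fold change ran from 0.03 (Iars2) to 0.12 (Pars2), at 5.46 to 104.7 CPM, and thinning to the smallest library gave 1 mitochondrial rise (Pars2 in place of Lars2) and 1 fall (Mars2).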
